A study of Mus musculus with 6 samples.

Results

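The Zfp genes encode zinc-finger proteins, and many of them lie side by side in the mouse genome. A gene was taken as a member when its symbol read Zfp plus a digit and its annotated start (GRCm38, GENCODE M21) lay within 100 kb of the start of another such gene on the same chromosome. Of 411 Zfp genes in the expression tables, 222 met this rule and 189 did not, out of 43432 listed genes. The 222 members formed 53 clusters on 14 chromosomes, with 75 members on chromosome 7, 38 on chromosome 17 and 26 on chromosome 13. Clusters of 2 genes were the most common (26), 8 clusters had 3 genes, and the 19 clusters of 4 or more held 146 members.

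Gene expression was measured by RNA-seq of poly(A)-selected RNA in primary cortical neurons of wild-type C57BL/6 embryos at E16.5, grown in culture for 7 days, with male and female embryos pooled. In every culture, the controls included, neurons had been silenced overnight with tetrodotoxin (TTX), which blocks sodium channels, and DL-AP5, which blocks NMDA receptors. KCl at 55 mM was then used to depolarize the neurons, and RNA was taken at 0 h, 2 h or 6 h, with 2 biological replicates per time point and 6 libraries in all. The labels do not say how many embryos or dishes went into a replicate. The 0 h group had been silenced and is not a group of untreated neurons. Expected counts per library summed to between 25959298 and 28573067.

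Proteins of this family bind DNA through tandem C2H2 fingers, each of which contacts a short stretch of bases. Many also carry a KRAB box, which recruits Trim28 (KAP1) and, through it, histone methyltransferase and heterochromatin proteins, and several are known to silence transposable elements and imprinted loci. The genes multiplied by tandem duplication, which is why neighbours in a cluster often resemble each other in sequence. Depolarization with KCl opens voltage-gated calcium channels and is widely used to set off activity-dependent transcription in cultured neurons.

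The resemblance matters for the measurements, which used paired reads. A pair that lies wholly in a stretch identical in neighbouring genes cannot be assigned to either of them. The following coding stretches (GENCODE M21) come from a near-identical and from a more diverged pair of members of 1 cluster, with capitals at the positions where the pair differs. Zfp97 (chr17:17121415-17146831) and Zfp960 (chr17:17064113-17089628) shared an identical coding run of 507 bases, and coding bases 448 to 567 of each are shown.
Zfp97: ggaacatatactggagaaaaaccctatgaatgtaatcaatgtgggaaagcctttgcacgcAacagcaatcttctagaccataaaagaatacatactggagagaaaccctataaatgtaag
Zfp960: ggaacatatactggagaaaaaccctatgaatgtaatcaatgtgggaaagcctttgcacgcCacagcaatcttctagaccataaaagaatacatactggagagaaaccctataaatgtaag
Zfp729a (chr13:67612763-67637791) and Zfp65 (chr13:67705309-67729173) shared a coding run of at most 90 bases, shorter than a read of 150 bases, and differed at 7 of 120 bases in coding bases 1490 to 1609 of Zfp729a and 872 to 991 of Zfp65.
Zfp729a: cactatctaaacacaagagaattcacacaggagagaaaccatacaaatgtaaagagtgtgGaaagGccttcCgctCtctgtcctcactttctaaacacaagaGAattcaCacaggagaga
Zfp65: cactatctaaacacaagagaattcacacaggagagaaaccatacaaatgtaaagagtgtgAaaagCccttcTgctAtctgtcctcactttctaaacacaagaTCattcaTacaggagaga

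The 150 bases before the start (RefSeq, GRCm38.p6, transcribed strand) are shown for 3 members that fell strongly at 2 h and for 1 that was called higher, with every CG dinucleotide in capitals, as these differ in number between the promoters.
Zfp712, chr13:67061171-67061320, minus strand: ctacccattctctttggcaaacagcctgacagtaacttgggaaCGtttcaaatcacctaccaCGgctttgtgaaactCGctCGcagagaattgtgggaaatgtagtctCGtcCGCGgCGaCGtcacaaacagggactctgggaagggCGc
Zfp799, chr17:32830262-32830411, minus strand: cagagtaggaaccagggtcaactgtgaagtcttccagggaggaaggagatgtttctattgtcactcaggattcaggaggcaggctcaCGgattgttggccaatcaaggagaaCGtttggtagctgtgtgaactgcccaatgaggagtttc
Zfp60, chr7:27731259-27731408, plus strand: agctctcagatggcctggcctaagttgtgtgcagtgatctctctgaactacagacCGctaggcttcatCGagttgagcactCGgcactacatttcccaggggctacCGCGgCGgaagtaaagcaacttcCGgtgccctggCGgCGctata
Zfp948, chr17:21566828-21566977, plus strand: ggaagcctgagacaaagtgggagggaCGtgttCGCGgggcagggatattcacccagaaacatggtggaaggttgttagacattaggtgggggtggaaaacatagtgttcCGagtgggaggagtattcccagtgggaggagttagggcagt
These windows held 10, 2, 9 and 4 CG dinucleotides, respectively. Over the 190 members matched to a RefSeq promoter (250 bases before to 50 after the start), the median ratio of observed to expected CG was 0.59, against 0.38 over 32817 promoters of all genes and 0.67 over 142 promoters of solitary Zfp genes. Searched on both strands, CCAAT stood in 52.1% of the members' promoters and 37.4% of all promoters, GGGCGG in 38.4% and 35.6%, TGACGTCA (the cyclic AMP response element) in 4.21% and 1.79%, and TGANTCA (the AP-1 site) in 4.21% and 7.81%. Solitary Zfp promoters held CCAAT in 45.1% and GGGCGG in 51.4%. Among members called lower at 2 h, 49.5% of 105 promoters held CCAAT and 35.2% held GGGCGG, and among the other members 55.3% and 42.4% of 85 did. Within the printed 150 bases, CCAAT was found for Zfp799, and none of these motifs was found for Zfp712, Zfp60 and Zfp948.

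Of the 222 members, 215 were protein coding and 7 were antisense transcripts, pseudogenes or other transcripts. The coding sequences held a median of 12 C2H2 finger patterns (range 0 to 33), against 8 for the Zfp genes outside clusters. A KRAB box pattern was found in 131 of 215 coding members (60.9%), in 33 of 179 coding Zfp genes outside clusters (18.4%) and in 0.23% of other coding genes. A single short pattern was searched, so a gene in which it was not found may still carry a KRAB box. Reads were counted for 220 members, Zfp978 and Zfp286os had none in any library, and 9 members had a mean normalized count below 10. The remaining 211 members are those described by medians below, and 155 of them reached a mean of 100.

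The members were modestly expressed. Their median level was 9.2 TPM at 0 h, 3.3 TPM at 2 h and 5.4 TPM at 6 h, while the medians of all 14668 genes at the same minimum count were 16.9, 13.2 and 14.4 TPM. Zfp637, Zfp445 and Zfp146 had the highest mean TPM. Zfp637 stood at 136, 53.1 and 74.4 TPM at 0, 2 and 6 h, Zfp445 at 69.1, 57.3 and 60.3 TPM, and Zfp146 at 69.7, 40.1 and 70.9 TPM.

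The first comparison asked how the members' mRNA stood after 2 h of depolarization. A call required, in DESeq2, an adjusted p no larger than 0.05 together with a change of more than 2-fold. By this rule 119 of 217 testable members were lower after 2 h (54.8%), where 5.94% of all genes tested were. Only Zfp948 and Zfp248 were called higher, 2 of 217, against 3.62% of all genes. The median log2 fold change of the members was -1.23, compared with 0.01 over all genes, and 196 of 211 members had a value below 0, as did 7187 of all 14668 genes. The 56 of 167 solitary Zfp genes called lower (33.5%) had a smaller share and a median of -0.60, a contrast that was not tested.

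The decrease was also seen in the signal summed over the clustered members. The members' normalized counts added up to 101890 and 94351 in the 0 h libraries, 58591 and 44525 in the 2 h libraries, and 99282 and 95927 in the 6 h libraries. Both 2 h libraries were far below the other 4, and the 6 h sums fell within or near the range at 0 h. On the TPM scale, which corrects for transcript length, the sums were 2795 and 2667 at 0 h, 1464 and 1170 at 2 h, then 2344 and 2316 at 6 h. The 6 h sums were lower than the 0 h sums on that scale, on which the median of all genes was also lower at 6 h (14.4 TPM) than at 0 h (16.9 TPM). Since the sums weigh abundant members most, they moved differently from the median member, whose log2 fold change at 6 h was still below 0.

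The 2 replicates at 2 h differed in how far the members had fallen. The median member stood at a log2 ratio of -1.09 to the 0 h mean in replicate 1 and -1.47 in replicate 2, and 178 (84.4%) and 194 (91.9%) of 211 members lay below both 0 h libraries, against 44.0% and 44.8% of all genes. The median log2 ratio of replicate 1 to replicate 2 was 0.41 over the members and -0.04 over all genes at 2 h, whereas at 0 h and 6 h it was 0.10 and 0.03 over the members. The SD of that ratio at 2 h was 0.69 over the members and 0.54 over all genes, and at 0 h it was 0.28 and 0.40.

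**Figure D1:**
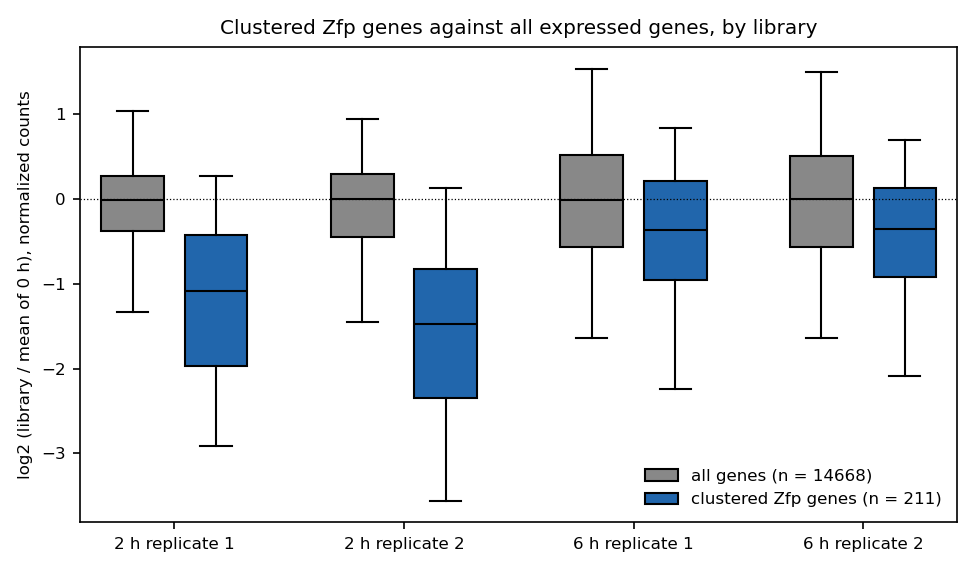
Log2 ratio of each KCl-treated library to the mean of the 0 h libraries, in normalized counts, for all 14668 genes (grey) and 211 clustered Zfp genes (blue) whose mean normalized count was at least 10. Boxes span the quartiles with the median as a line, and whiskers run from the 5th to the 95th percentile. The members' medians are -1.09 and -1.47 in the 2 h libraries and -0.37 and -0.35 in the 6 h libraries, while the medians of all genes stay near 0.

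Zfp712, with 20 finger patterns and a KRAB pattern, had the largest decrease among the members whose mean normalized count was at least 100. It stood at 342 and 218 normalized counts at 0 h, 28.96 and 9.30 at 2 h, then 177 and 183 at 6 h. The 2 h libraries lay well below all others, the log2 fold change was -3.87 ± 0.44 (SE; DESeq2 adjusted p = 1.70e-16), and the rise from 2 h to 6 h was 3.23 ± 0.45 (adjusted p = 7.64e-12). At 6 h it was not called different from 0 h (-0.64 ± 0.38, adjusted p = 0.170).

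Zfp799, a gene of 17 fingers on chromosome 17, followed. It had 975 and 965 normalized counts at 0 h, 91.9 and 71.3 at 2 h, then 468 and 489 at 6 h, with no overlap between time points. The decrease at 2 h was 11.9-fold (log2 fold change -3.57 ± 0.19, adjusted p = 2.65e-76), and at 6 h it was still lower than at 0 h (-1.02 ± 0.16, adjusted p = 1.30e-09). Without replicate 1 at 6 h, the last value was -0.99 and was not called.

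Zfp759 went down and stayed down. It had 311 and 272 counts at 0 h, 50.9 and 9.30 at 2 h, then 39.6 and 54.9 at 6 h. The log2 fold change was -3.27 ± 0.58 at 2 h (adjusted p = 2.24e-07) and -2.63 ± 0.57 at 6 h (adjusted p = 1.72e-05), and 6 h did not differ detectably from 2 h (0.65 ± 0.59, adjusted p = 0.395).

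The 2 members called higher at 2 h were a KRAB gene of 15 fingers and a KRAB gene of 7. Zfp948 had 618 and 436 normalized counts at 0 h, 1893 and 926 at 2 h, then 1229 and 1057 at 6 h, a log2 fold change of 1.42 ± 0.32 at 2 h (adjusted p = 9.89e-05) and 1.12 ± 0.32 at 6 h (adjusted p = 0.00175). Zfp248 had 510 and 446 counts at 0 h, 1336 and 911 at 2 h, then 1132 and 1014 at 6 h (1.23 ± 0.22, adjusted p = 1.66e-07, and 1.17 ± 0.22, adjusted p = 3.80e-07). In both genes replicate 1 at 2 h was the highest library, and without it the 2 h values were 0.81 and 0.92 and neither gene was called.

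**Figure D2:**
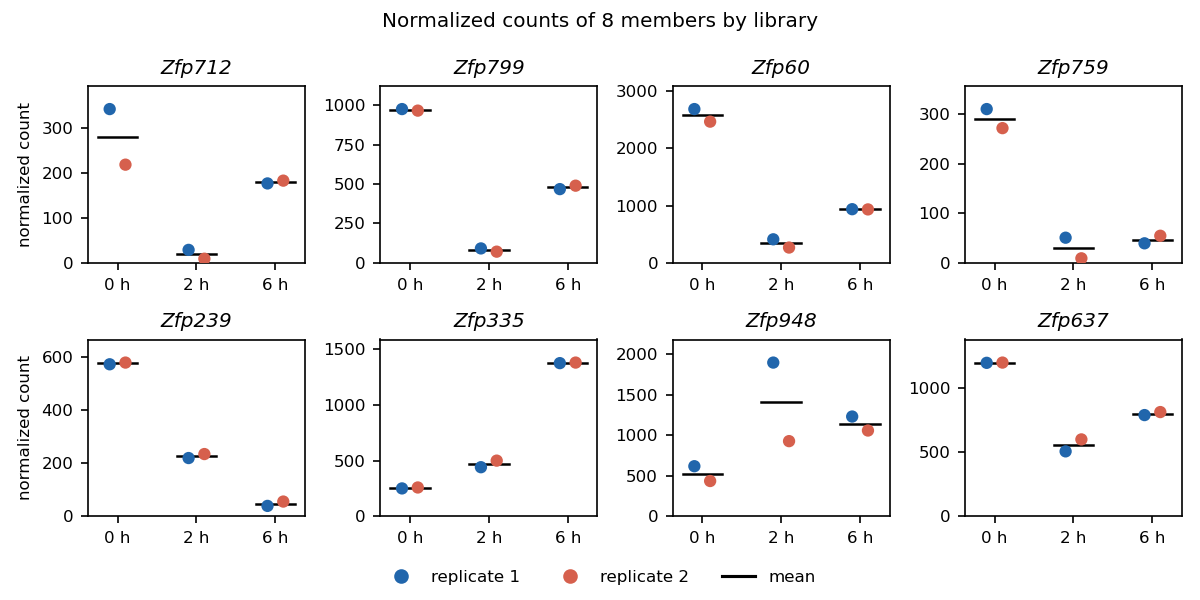
Normalized counts of 8 members in each of the 6 libraries (points, 2 replicates per time point) with the mean per time point (line). Zfp712, Zfp799 and Zfp60 fall at 2 h and lie between the 2 levels at 6 h, Zfp759 stays low, Zfp239 is lowest at 6 h, Zfp335 and Zfp948 lie above their 0 h level at 6 h, and Zfp637, the member with the highest TPM, falls and partly returns.

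The second comparison set 6 h against 0 h. At 6 h, 45 of 217 members were called lower (20.7%), against 10.2% of all genes, and 6 were called higher (2.76%), against 9.1% of all genes. The median log2 fold change was -0.35, compared with -0.00 over all genes. Solitary Zfp genes stood at 20 of 167 lower and a median of 0.05. The count of 45 depended on single libraries, and was 25 without replicate 1 of the 0 h group and 29 without replicate 1 of the 6 h group.

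The share called lower at 6 h was smaller in abundant than in scarce members, a difference that was not tested. Of the 56 members with a mean normalized count of 10 to 100, 23 were called lower at 6 h (41.1%, median -0.85). Among the 105 members at 100 to 500, 18 were called lower (17.1%, median -0.38), and among the 50 members at 500 or more, 3 were lower and 4 higher (median 0.21). Across the 211 members, Spearman's rho between mean count and the 6 h log2 fold change was 0.52, against 0.23 over all genes. This is a description across genes, which share libraries, and the 6 h libraries entered both quantities.

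Zfp239 (MOK2, a finger protein that binds DNA and RNA) showed the strongest 6 h decrease among the members with a mean of at least 100. It had 573 and 579 normalized counts at 0 h, 220 and 235 at 2 h, then 39.6 and 55.9 at 6 h, so each time point lay below the one before. The log2 fold change was -1.34 ± 0.20 at 2 h (adjusted p = 1.87e-10), -3.59 ± 0.24 at 6 h (adjusted p = 7.60e-49) and -2.25 ± 0.25 from 2 h to 6 h (adjusted p = 1.47e-18). Its neighbour Zfp637, the other member of its cluster, had 1200 and 1202 counts at 0 h, 508 and 602 at 2 h, then 792 and 815 at 6 h (-1.11 ± 0.14, adjusted p = 3.24e-13, at 2 h, and -0.58 ± 0.14, adjusted p = 0.000179, below the fold threshold, at 6 h). Both genes were thus called lower at 2 h and Zfp239 also at 6 h, and the difference between them was not tested.

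Zfp94, at the end of a chromosome 7 cluster, was low at both later times, with 336 and 272 counts at 0 h, 66.9 and 72.4 at 2 h, then 70.6 and 52.7 at 6 h. The log2 fold change was -2.13 ± 0.28 at 2 h (adjusted p = 9.84e-13) and -2.30 ± 0.28 at 6 h (adjusted p = 1.02e-14). Zfp663, a gene with under 100 mean counts that was chosen after its values were seen, went from 110 and 88.5 counts at 0 h over 47.9 and 51.7 at 2 h to 5.35 and 5.38 at 6 h (log2 fold change at 2 h -0.99 ± 0.38, adjusted p = 0.0385, below the fold threshold, and at 6 h -4.21 ± 0.58, adjusted p = 4.18e-12).

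The 6 members called higher at 6 h were Zfp335, Zfp248, Zfp667, Zfp948, Zfp820 and Zfp92. Zfp335, which is needed for neural progenitor division in the embryonic cortex, had 251 and 260 normalized counts at 0 h, 441 and 500 at 2 h, then 1375 and 1380 at 6 h, and the 3 time points did not overlap. Its log2 fold change was 0.88 ± 0.15 at 2 h (adjusted p = 1.03e-07, below the fold threshold) and 2.43 ± 0.15 at 6 h (adjusted p = 3.61e-59), the largest 6 h increase of any member tested. Zfp335 overlaps Pcif1 and the antisense transcript Zfp335os and had non-whole counts in all 6 libraries, so its counts are uncertain. Zfp667 did not pass the test at 2 h (484 and 465 counts at 0 h, 471 and 351 at 2 h) and rose to 1254 and 1142 at 6 h (1.34 ± 0.18, adjusted p = 3.59e-12).

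The third comparison, 6 h against 2 h, showed mostly increases. Of 215 members with an adjusted p, 98 were called higher at 6 h (45.6%), against 10.1% of all genes, and 6 lower (2.79%), against 8.02% of all genes. The median was 0.91, compared with 0.00 over all genes. The 2 comparisons that involve 2 h share its libraries, and without replicate 1 at 2 h the median became 1.2. After Zfp712, the largest increases in members with a mean of at least 100 were in Zfp955a and Zfp933. Zfp955a had 404 and 367 counts at 0 h, 73.9 and 31.0 at 2 h, then 359 and 338 at 6 h (2.73 ± 0.34 from 2 h to 6 h, adjusted p = 2.14e-14). Zfp933 had 565 and 480, 125.8 and 73.4, and 654 and 646 counts (2.70 ± 0.26, adjusted p = 4.06e-24), and its 6 h libraries lay above its 0 h libraries, a difference that did not pass the test (0.32 ± 0.24, adjusted p = 0.291).

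Called lower from 2 h to 6 h were Zfp239 and Zfp663, given above, and Zfp783, Zfp784, Zfp575 and Zfp85os. Without replicate 2 at 6 h, the count was 3 in place of 6. Zfp85os, an antisense transcript that overlaps Zfp85 on the other strand in the chromosome 13 cluster, differed in course from that gene. It had 91.4 and 85.1 counts at 0 h, 71.9 and 75.5 at 2 h, then 20.3 and 20.4 at 6 h, while Zfp85 had 139 and 142, 27.96 and 16.54, and 102 and 72.1.

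The number of members called lower varied between clusters, and this variation was not tested. At 2 h, 38 of the 53 clusters had at least 1 member called lower, and in 15 of the 19 clusters of 4 or more at least as many tested members were called lower as were not. The share called lower was 38.0% in clusters of 2, 30.4% in clusters of 3, 53.9% in clusters of 4 to 6, and 70.7% in clusters of 7 or more. Of all genes, 5.94% were called lower. Members within a cluster were far from uniform. The SD of the 2 h log2 fold change within clusters of 4 or more was 0.96. It was 1.02 over all members, which include those in clusters of 2 and 3, and 0.84 over all genes.

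**Figure D3:**
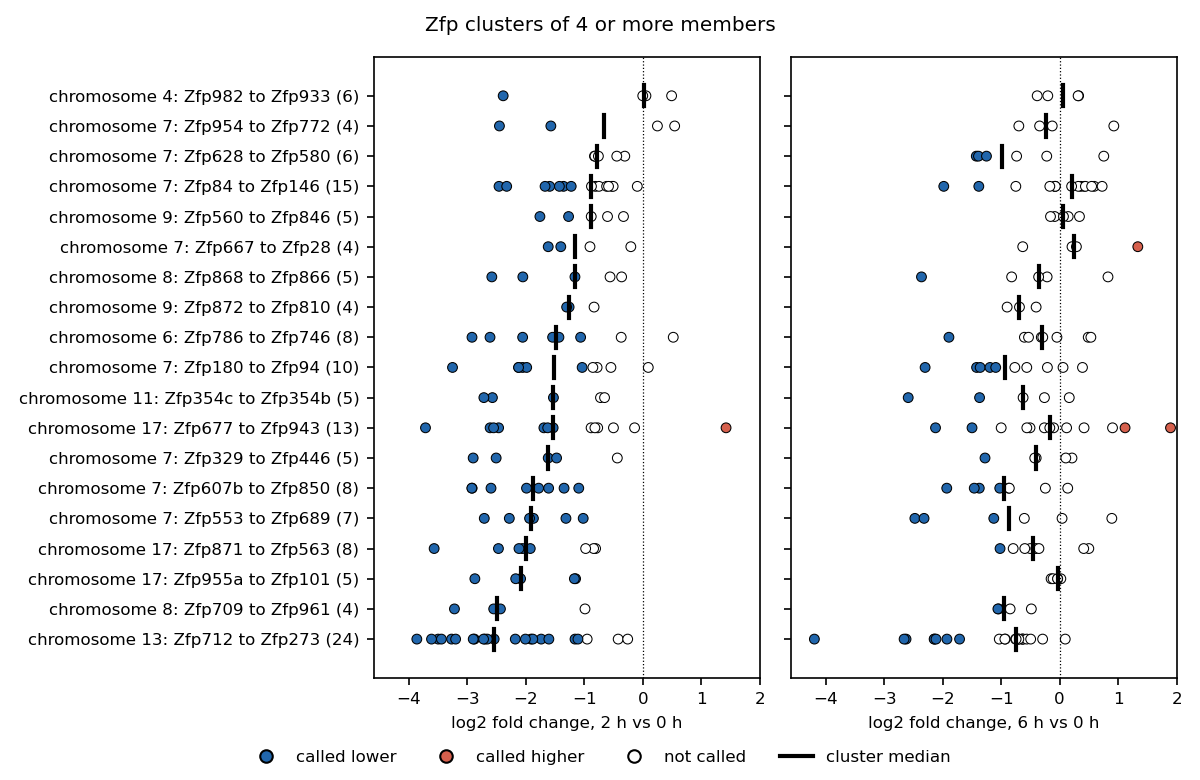
Log2 fold change of every member whose mean normalized count was at least 10 in the 19 clusters of 4 or more members, at 2 h (left) and 6 h (right) against 0 h. Rows are clusters, named by chromosome and by their first and last member with the number of members in brackets, and sorted by the 2 h median. Blue points are called lower, red points called higher, open points not called, and black bars are cluster medians. The chromosome 13 cluster has the lowest 2 h median (-2.54), and Zfp948 is the 1 member called higher at 2 h.

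The largest cluster, of 24 members over 788 kb of chromosome 13 (chr13:67038596-67827002), also had the lowest 2 h median. All 24 of its members had an adjusted p, 20 were called lower and none higher, and the median was -2.54 over the 23 with a mean of at least 10. Summed over the cluster, normalized counts came to 6712 and 5553 at 0 h, 2317 and 1197 at 2 h, then 3604 and 3425 at 6 h, so that it held 28.7% of its 0 h sum at 2 h and 57.3% at 6 h. At 6 h, 8 members were lower than at 0 h. Without this cluster, 99 of the other 193 members (51.3%) were called lower at 2 h, with a median of -1.10.

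Courses differed along this cluster. Zfp748, its most abundant member, had 682 and 525 counts at 0 h, 276 and 120 at 2 h, then 698 and 592 at 6 h (-1.61 ± 0.35 at 2 h, adjusted p = 4.49e-05, and 0.10 ± 0.34 at 6 h, adjusted p = 0.852). Zfp65 had 647 and 521, 115 and 41.4, and 142 and 122 counts (-2.90 ± 0.40 at 2 h, adjusted p = 1.52e-11, and -2.15 ± 0.39 at 6 h, adjusted p = 3.55e-07). Zfp493, chosen after its values were seen, had 181 and 172, 21.97 and 10.3, and 12.8 and 6.45 counts, and was the member of this cluster with the lowest 6 h value (-4.19 ± 0.51, adjusted p = 6.18e-15). At 6 h both libraries of Zfp748 lay above its lower 0 h library, whereas those of Zfp65 and Zfp493 lay below both 0 h libraries.

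**Figure D4:**
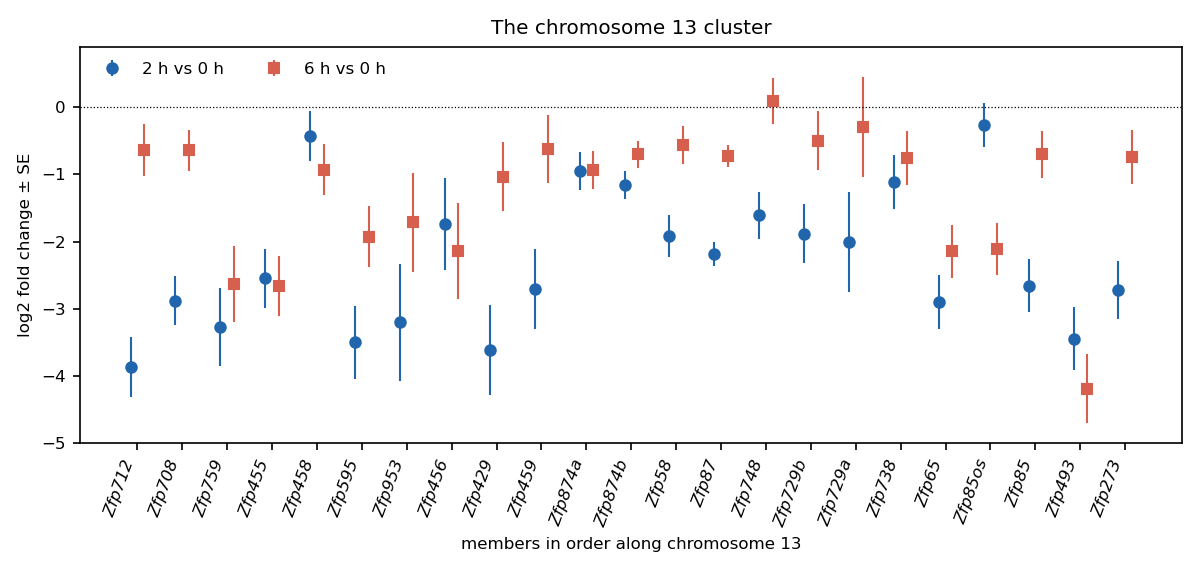
Log2 fold change ± SE of the 23 members of the chromosome 13 cluster whose mean normalized count was at least 10, in their order along the chromosome, at 2 h (blue circles) and 6 h (red squares) against 0 h. Most members lie below -1 at 2 h, from -3.87 for Zfp712 to -0.26 for Zfp85os, and at 6 h they range from -4.19 for Zfp493 to 0.10 for Zfp748.

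Further clusters were lower in every member tested. In the chromosome 7 cluster from Zfp607b to Zfp850 (chr7:27689340-28014115), 8 of 8 members were called lower at 2 h, 4 of 8 were also lower at 6 h, and the summed counts fell to 22.3% of 0 h at 2 h and stood at 44.4% at 6 h. Zfp60, its most abundant member and a KRAB gene of 19 fingers, had 2681 and 2462 counts at 0 h, 411 and 268 at 2 h, then 936 and 933 at 6 h (-2.92 ± 0.21 at 2 h, adjusted p = 5.49e-43, and -1.46 ± 0.20 at 6 h, adjusted p = 5.16e-12). Zfp59, which shared a coding run of 135 bases with Zfp60 and had non-whole counts in all 6 libraries, showed the largest decrease of the cluster, with 220 and 188, 34.0 and 19.6, and 95.2 and 105 counts (-2.93 ± 0.35 at 2 h, adjusted p = 1.84e-15).

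All 5 members of the chromosome 17 cluster from Zfp955a to Zfp101 (chr17:33239718-33394641) were called lower at 2 h, with log2 fold changes from -2.87 to -1.15, and all 5 rose again from 2 h to 6 h. At 6 h their values against 0 h ran from -0.15 to 0.02 and none was called, and the summed counts stood at 96.0% of 0 h. Of the 6 tested members of the chromosome 7 cluster from Zfp553 to Zfp689 (chr7:127233061-127449158), all 6 were lower at 2 h and 3 were lower at 6 h. Its summed counts nevertheless stood at 128% of 0 h at 6 h, and most of that sum came from Zfp553, which had 790 and 856 counts at 0 h and 1582 and 1474 at 6 h.

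The chromosome 17 cluster from Zfp871 to Zfp563 (chr17:32765496-33110705), which holds Zfp799, had 5 of 8 members lower at 2 h. Zfp871, its most abundant member, had 2248 and 2104 counts at 0 h, 1608 and 876 at 2 h, then 3050 and 3099 at 6 h. Its 2 h value (-0.81 ± 0.26, adjusted p = 0.00828) did not reach the fold threshold, while the increase from 2 h to 6 h did (1.31 ± 0.26, adjusted p = 2.03e-06). In this cluster the most abundant member thus had the smallest 2 h change.

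Mixed courses were seen in 3 other large clusters. The chromosome 17 cluster from Zfp677 to Zfp943 (chr17:21383748-22071168), in which a KRAB pattern was found in all 13 members, had 7 members lower at 2 h and Zfp948 higher. Zfp677 was the lowest of them, with 101.2 and 71.6 counts at 0 h, 10.98 and 2.07 at 2 h, then 20.3 and 19.4 at 6 h (-3.72 ± 0.66 at 2 h, adjusted p = 2.80e-07). Zfp677 and Zfp948 thus moved in opposite directions at 2 h. In the chromosome 7 cluster from Zfp84 to Zfp146 (chr7:29768552-30169750), 7 of 15 members were lower at 2 h and 2 at 6 h.

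In that cluster Zfp14 had the largest decrease, with 205 and 220 counts at 0 h, 36.0 and 41.4 at 2 h, then 82.4 and 80.7 at 6 h (-2.46 ± 0.29, adjusted p = 1.46e-15). Its most abundant member was Zfp260, with 1904 and 1769 counts at 0 h, 1004 and 567 at 2 h, then 3172 and 2904 at 6 h (-1.23 ± 0.25 at 2 h, adjusted p = 9.44e-06, and 0.73 ± 0.25 at 6 h, adjusted p = 0.00887, below the fold threshold). Without replicate 2 at 2 h the 2 h value of Zfp260 was -0.89 and was not called. Zfp146 had 1599 and 1707, 1205 and 994, and 1892 and 1917 counts, and its 2 h decrease was below the fold threshold (-0.59 ± 0.14, adjusted p = 0.000297).

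The chromosome 7 cluster from Zfp180 to Zfp94 (chr7:24081924-24316666) was the largest in which no KRAB pattern was found, and 6 of its 10 members were lower at 2 h. At 6 h, 5 members were lower than at 0 h, and Zfp111 was the only 1 called higher than at 2 h. Zfp111 had 383 and 402 counts at 0 h, 46.9 and 35.2 at 2 h, then 244 and 217 at 6 h (-3.26 ± 0.26 at 2 h, adjusted p = 7.33e-35, and 2.49 ± 0.26 from 2 h to 6 h, adjusted p = 5.05e-20). Zfp180, the most abundant member, was not called in any comparison, with 1640 and 1649, 1733 and 1772, and 2186 and 2125 counts.

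In 15 clusters no member was called lower at 2 h, and 14 of these had 2 or 3 members. The exception was the chromosome 7 cluster from Zfp628 to Zfp580 (chr7:4915217-5053723), with 6 members, no KRAB pattern and a median GC content of 61.2% against 43.0% over all members. Its 2 h values ran from -0.83 to -0.31 with none called, and 3 of 6 members were lower at 6 h. On chromosomes 2 and 4, 1 of 10 and 1 of 9 members were called lower at 2 h, where 5.94% of all genes were. The counts were 21 of 26 on chromosome 13 and 9 of 12 on chromosome 6, and the difference between chromosomes was not tested. The cluster from Zfp982 to Zfp933 on chromosome 4 had a 2 h median of 0.02, with Zfp933 as its only member called lower.

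The share called lower at 2 h was highest in the members with the most fingers, a difference that was not tested. Of members with 0 to 6 finger patterns, 11 of 25 were called lower (44.0%), of those with 7 to 11 fingers 33 of 74 (44.6%), of those with 12 to 15 fingers 41 of 70 (58.6%), and of those with 16 or more 32 of 42 (76.2%). The medians were -0.82, -0.91, -1.36 and -1.78. All 41 members of the last group with a mean of at least 10 had a 2 h value below 0. At 6 h the medians were -0.57, -0.33, -0.13 and -0.64, with no such order.

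Spearman's rho between finger number and the 2 h log2 fold change was -0.28 over 205 members and -0.18 over all genes, and that between GC content and the 2 h value was 0.16 over 211 members and 0.10 over all genes. These describe points that share libraries and, within a cluster, ancestry. Of members with a KRAB pattern, 78 of 128 were lower at 2 h (60.9%, median -1.43), and of coding members without it 39 of 83 (47.0%, median -0.94). Outside clusters, 16 of 29 Zfp genes with the pattern (55.2%) and 39 of 134 without it (29.1%) were lower. The difference between members with and without the pattern was not tested, and members without it may still carry a KRAB box.

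**Figure D5:**
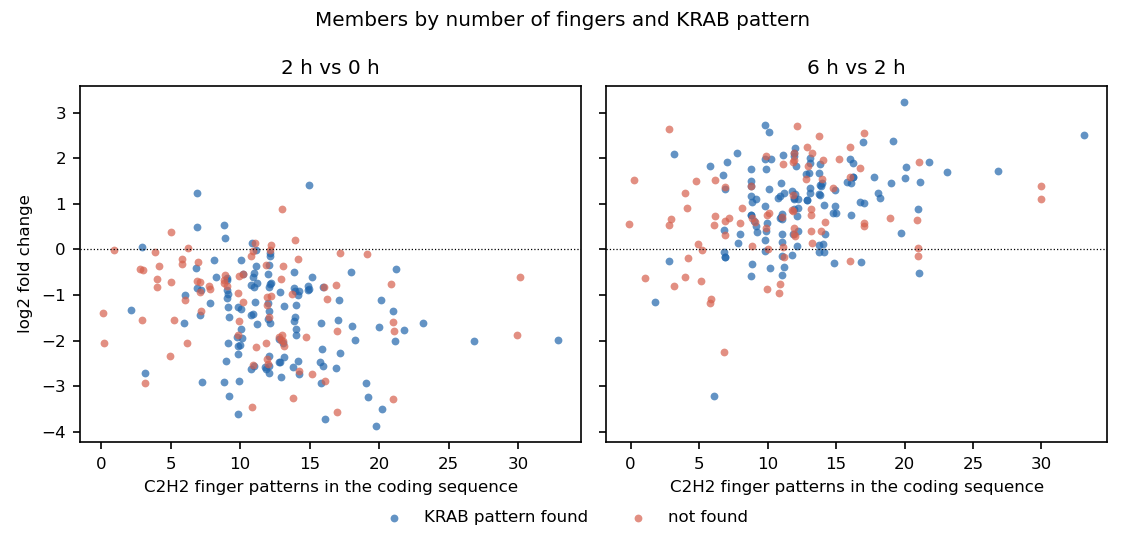
Log2 fold change against the number of C2H2 finger patterns for the coding members whose mean normalized count was at least 10, at 2 h against 0 h (left) and 6 h against 2 h (right). Blue points carry a KRAB box pattern and red points do not, and points are shifted slightly sideways so that they do not cover each other. Members with 16 or more fingers all lie below 0 in the left panel.

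The following 5 members were chosen for their known roles after their values were seen, and all had a 2 h value below 0. Zfp445, which maintains methylation at imprinted loci, was not called at 2 h, with 2712 and 2472 counts at 0 h, 2899 and 1977 at 2 h, then 2643 and 2481 at 6 h (-0.09 ± 0.20, adjusted p = 0.822). Zfp568, a repressor of a placental Igf2 transcript, had 171 and 185, 135 and 116, and 163 and 155 counts (-0.51 ± 0.23, adjusted p = 0.0956). Zfp809, which silences retroviral elements in embryonic cells, had 79.9 and 90.2, 53.9 and 41.4, and 67.4 and 61.3 counts (-0.84 ± 0.35, adjusted p = 0.0598). None of these 3 repressors passed the test.

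Zfp746 (PARIS, a repressor of the gene for PGC-1alpha) fell from 612 and 551 counts at 0 h to 78.9 and 74.4 at 2 h and stood at 437 and 515 at 6 h. Its log2 fold change was -2.92 ± 0.21 at 2 h (adjusted p = 1.77e-41) and 2.63 ± 0.21 from 2 h to 6 h (adjusted p = 3.38e-33). Zfp110 (NRIF, which interacts with the p75 neurotrophin receptor) fell from 953 and 970 to 311 and 315 counts and reached 1151 and 1073 at 6 h (-1.62 ± 0.14 at 2 h, adjusted p = 3.16e-30). In both genes the 2 h libraries were the lowest and the replicates lay close together.

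The partners through which KRAB proteins silence chromatin had few calls at 2 h. Of 25 co-repressor genes, 1 was called lower (4.0%) and 0 higher, near the 5.94% and 3.62% of all genes. The list had a median log2 fold change of -0.01 at 2 h, compared with 0.01 over all genes. None was called at 6 h against 0 h, and 1 was lower and 2 were higher at 6 h than at 2 h. Trim28, the protein that KRAB boxes bind, had 5941 and 5921 counts at 0 h, 7721 and 8770 at 2 h, then 8962 and 8567 at 6 h (0.48 ± 0.11 at 2 h, adjusted p = 0.000192, below the fold threshold). Setdb1, the histone H3 lysine 9 methyltransferase that Trim28 recruits, had 2704 and 2525, 1800 and 2096, and 2893 and 2814 counts (-0.42 ± 0.13 at 2 h, adjusted p = 0.00494, below the fold threshold). The co-repressor called lower at 2 h was Smarcad1, a chromatin remodeller (-1.02 ± 0.21, adjusted p = 8.75e-06), and it and Atf7ip, a Setdb1 partner, were the 2 called higher from 2 h to 6 h. The 4 co-repressor calls of the 3 comparisons became 2 without replicate 2 at 2 h, 8 without replicate 1 at 2 h, 1 under a GC correction and 0 in a test against a log2 fold change of 1.

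Genes of other names also lie inside the clusters. Of 32 other coding genes between the first and last start of a cluster of 3 or more, those with a predicted name (Gm or Rik) or a symbol that starts with Zscan, Zkscan, Zik, Rsl, Zbtb or Znf had 4 of 9 called lower at 2 h (median -1.62 over 6 with a mean of at least 10), and the rest had 1 of 14 lower and 1 higher (median 0.08), where 5.94% of all genes were lower and 3.62% higher. The split went by symbol, so that Fiz1, with 11 finger patterns, was counted with the rest. The difference between these kinds of gene was not tested. Rsl1, a KRAB gene of 12 fingers in the chromosome 13 cluster known to repress sex-limited liver genes, had 112 and 111 counts at 0 h, 14.98 and 8.27 at 2 h, then 63.1 and 45.2 at 6 h (-3.26 ± 0.47, adjusted p = 1.17e-10). Zscan22, a finger gene with no KRAB pattern, fell likewise, from 363 and 331 to 53.9 and 55.8 counts (-2.66 ± 0.23, adjusted p = 3.67e-29). At 6 h, 5 of 14 genes of the rest were called lower than at 0 h (median -0.74), where 10.2% of all genes were. Of the genes with a predicted or zinc-finger symbol, Rsl1 (log2 fold change -1.04) and E430018J23Rik (-2.135) were called lower at 6 h. Over the 3 comparisons, the 22 calls among all 32 genes became 14 without replicate 1 at 0 h or at 6 h and 13 without replicate 2 at 6 h.

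Non-whole counts mark genes whose reads were shared with another gene by the authors' estimation. Of the 222 members, 65 had a non-whole expected count in at least 1 library and 26 in all 6. Per library, 17.5% to 23.7% of the counted members were non-whole, against 12.5% to 13.3% of all counted genes. A transcript stretch of at least 150 bases identical to another gene was found for 52 members, and 37 of these (71.2%) had non-whole counts, against 28 of the other 170 (16.47%). For 24 of the 52 members, such a stretch was shared with a member of the same cluster.

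The decrease at 2 h was not limited to members with shared reads. Of the members with whole counts in every library, 88 of 153 were called lower (57.5%, median -1.30), and of those with non-whole counts 31 of 64 (48.4%, median -1.04). Of the 37 members that overlap another expressed gene, 16 of 36 tested were lower, and of those without an overlap 103 of 181 (56.9%). Whether the authors' counting used strand is not stated in the sources used here, so members that overlap a gene on the opposite strand may share its reads.

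The members with the least whole counts were Zfp442, Zfp65 and Zfp97. Zfp442 had 220 and 164 normalized counts at 0 h, 83.9 and 26.9 at 2 h, then 170 and 211 at 6 h (-1.79 ± 0.47 at 2 h, adjusted p = 0.000911). Zfp97 had 219 and 137, 50.9 and 46.5, and 228 and 196 counts (-1.87 ± 0.33, adjusted p = 3.43e-07), and its near-identical neighbour Zfp960 had 201 and 181, 67.9 and 33.1, and 277 and 201 (-1.92 ± 0.36, adjusted p = 2.02e-06). Of the 150-base windows, 1399 of 2535 in Zfp97 and 1399 of 2518 in Zfp960 were shared by the pair, so their values rest in part on shared reads. Zfp974 and Zfp780b share a coding run of 486 bases, and both had non-whole counts in all 6 libraries. Zfp974 had 482 and 454, 180 and 92.0, and 121 and 125 counts, and Zfp780b had 398 and 352, 183 and 112, and 403 and 422. Their 6 h levels thus lay apart, a difference between the genes that was not tested.

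Markers of the labelled cell type were present in every library, and their part in the members' values was not tested. The summed level of 9 neuron markers ranged from 3290 to 3921 TPM, and was lowest in the 2 h libraries (3466 and 3290). Tubb3 was the only neuron marker with a 2 h log2 fold change below 0, with 1639 and 1679 TPM at 0 h, 834 and 989 TPM at 2 h, then 666 and 794 TPM at 6 h. Without Tubb3 the list summed to 2281 and 2176 TPM at 0 h, 2632 and 2302 at 2 h, then 2999 and 3024 at 6 h. No neuron marker was called at 2 h. At 6 h, Gad1 (1.41) and Gad2 (1.35), which make the transmitter GABA, were called higher and Tubb3 (-1.01) lower in log2 fold change, and without replicate 1 at 6 h Tubb3 was at -0.90 and not called. The 6 astrocyte markers summed to 675 and 745 TPM at 0 h, 652 and 691 at 2 h, then 527 and 507 at 6 h, with none of the 6 called at 2 h or 6 h. Oligodendrocyte-lineage markers (5) summed to 94.1 to 138 TPM, markers of dividing cells (5) to 110 to 162 TPM, microglia markers (6) to 2.37 to 6.48 TPM and vessel markers (4) to 2.05 to 3.11 TPM, with 4 of 6 microglia and 3 of 4 vessel markers under 1 TPM at 0 h. In the authors' immunostaining, the neuronal marker Tuj1 dominated and the glial marker GFAP was minimal, which they read as high neuronal purity. Since markers of several cell types were present, fewer cells of a type and less RNA per cell cannot be told apart.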

How the data were processed

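The authors trimmed the reads, mapped them to mm10 and estimated expression with RSEM (RSEM 1.3.0 and Bowtie2 2.2.9 in the submitters' processing notes). The deposited expected counts divide reads that match several genes among them, so they need not be whole, and are not normalized. The deposited TPM values are corrected for transcript length and scaled to 1 total per library. The authors also deposited FPKM values and effective lengths in bases, from which no value here was computed. The annotation release is not given in the sources used here.

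Identifiers were matched to GENCODE M21 (42462 of 43432 genes), whose lower gene coordinate was taken as the start. Expected counts were rounded, and all 22515 genes with a count were fitted with DESeq2 1.42.0 (R 4.3.3) in 1 model of the 6 libraries with group as the only term, median-of-ratios size factors, and a two-sided Wald test. Fold changes were not shrunk, and p-values were adjusted by Benjamini-Hochberg after independent filtering. Calls needed an adjusted p no larger than 0.05 and a log2 fold change beyond 1 in size. Normalized counts are given per library. Depth was 25959298 to 28573067 counts, and no molecular identifiers are described. The script was tested on simulated data. A count was taken as whole within 0.005. Finger and KRAB patterns were searched in the translated longest coding sequence, as C-X2-4-C-X12-H-X3-5-H and a short KRAB box A signature. Overlapping genes came from the same annotation.

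The members, gene lists and tests were chosen with earlier results of these data known. Named members were the extremes of each comparison at a mean normalized count of at least 100 with libraries that do not overlap, the most abundant and the lowest 2 h member of the 6 clusters with most expressed members (3 clusters tied at 8 for the last places, and those with the smaller start coordinate were taken), the 3 with the highest TPM, those called higher at 2 h, and the 3 with the least whole counts. Alternatives were edgeR 4.0.16, TMM factors, library totals, a filter at a mean of 10, a test against a log2 fold change of 1, a replicate block, a GC correction, leaving out each library, and other distances. Biological replicates number 2 per group.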

Additional observations from a re-analysis of the deposited data

How the results depend on the processing

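Of the 714 values of named genes under the alternatives, 651 kept their direction and their side of the threshold, 63 kept the direction but lost the call (27 of them in the test against an absolute log2 fold change of 1), and 0 reversed. In that stricter test, 53 members were lower and 0 higher at 2 h, and 8 lower and 1 higher at 6 h. From 2 h to 6 h, 2 were lower and 29 higher. Over the 3 comparisons the stricter test gave 0 calls among co-repressors and 4 among other genes inside the clusters, in place of 4 and 22. For this test and the other alternatives, the share of all genes called is not given here. The counts therefore describe only how far the calls moved. With the thresholds of the report, 1 of the members with whole counts in every library was higher at 2 h. Under a GC correction, with or without the replicate block, the co-repressors had 1 call. Leaving out 1 library at a time, which leaves a lone sample assumed to vary like the other groups, gave 94 to 132 members lower and 0 to 2 higher at 2 h, 25 to 45 lower and 4 to 6 higher at 6 h, and 3 to 6 lower and 80 to 113 higher from 2 h to 6 h, with a median of 0.78 to 1.2 for the last. It gave 2 to 8 calls among co-repressors and 13 to 17 among other genes inside the clusters. The cause of these changes was not tested, beyond the smaller number of libraries. With library totals as size factors, the median of all genes was -0.16 at 2 h and -0.25 at 6 h. The members' medians relative to it were -1.24 and -0.35. Replicates with the same number were not paired by the labels, and their deviations correlated at 0.281, -0.002 and 0.152 in the 3 comparisons. With a replicate block, 117 members were lower and 2 higher at 2 h, 44 and 6 at 6 h, and 6 and 98 from 2 h to 6 h, with 116 of the 119 decreases at 2 h kept. With starts within 50 kb, within 200 kb, or with transcription starts within 100 kb, there were 177, 256 and 226 members, of which 102, 133 and 122 were lower at 2 h.

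With 2 libraries per group, the errors of members with few counts are wide, and the lowest 2 h counts of several members were under 10.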
